A study of Saccharomyces cerevisiae BY4741 with 9 samples.

Results

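The mitochondrial pyruvate carrier of budding yeast is encoded by 3 genes, MPC1 (YGL080W, listed in the deposited table as FMP37), MPC2 (YHR162W) and MPC3 (YGR243W, listed as FMP43). They are 3 of the 7130 features of the table, and all of them passed the filter on low values, as did 6559 features in all. The 3 genes were chosen by name, with their RPKM values in both genotypes already known, so their difference between genotypes is given as a description, without a test. The unit, RPKM, scales reads to the length of a feature (per kilobase) and to library depth (per 1000000 assigned reads).

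The carrier moves pyruvate, the end product of glycolysis, across the inner mitochondrial membrane to the matrix, where it feeds the pyruvate dehydrogenase complex and the synthesis of valine, leucine and alanine. It works as a heterodimer. Mpc1 is the constant subunit and pairs with Mpc2 in cells that ferment glucose, or with Mpc3 in cells that respire, and the MPC3 gene is known to be induced in respiratory growth and under stress.

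Yeast of the BY4741 background was compared as wild type (WT) and as a strain with the scc2-4 allele of SCC2, a cohesin loader subunit gene, with 3 libraries per genotype that the series' design calls biological replicates. Both were grown to exponential phase (optical density 0.7) in YPD with a complete amino acid supplement (CSM). Their growth temperature is not stated in these sources. The scc2-4 libraries were made after ribosomal RNA depletion. For WT the labels list 3 depleted and 3 total RNA libraries, and the 3 WT columns of the table carry only the genotype and a number, so a difference in preparation between the genotypes cannot be told apart from the genotype in any comparison below.

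Depth was between 14730000 and 21930000 assigned reads per library. WT replicate 1 stood apart, with correlations of 0.977 and 0.968 across features with the other WT libraries, against 0.993 between those and 0.99 to 0.993 among scc2-4 libraries. The log2 differences of the carrier genes are therefore also given without it. Of the genes deleted in BY4741, the 3 looked at (URA3, LEU2 and MET17) had at most 0.06 RPKM in any library. The a-specific receptor gene STE2 was at 248 to 499 RPKM where the alpha-specific receptor gene STE3 had 0.72 to 2.32 RPKM.

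All 3 carrier genes lie on the plus strand without introns and overlap no other feature of the table. In sacCer3, MPC1 spans chrVII:358636-359028 and encodes 130 residues, MPC2 spans chrVIII:423072-423461 and encodes 129, and MPC3 spans chrVII:977336-977776 and encodes 146. Mpc2 and Mpc3 were identical at 95 of 129 aligned residues (73.6%), and Mpc1 matched them at 29.2% and 27.9%. The coding sequences of MPC2 and MPC3 were identical at 66.9% of 387 aligned bases. The stretch that holds their longest identical run, 14 bases, is shown. Stretches were not ranked by how hard reads of the paralogs would be to separate. Capitals mark the 15 positions at which the genes differ (RefSeq R64 genome, plus strand, MPC2 chrVIII:423247-423318 and MPC3 chrVII:977511-977582).
MPC2: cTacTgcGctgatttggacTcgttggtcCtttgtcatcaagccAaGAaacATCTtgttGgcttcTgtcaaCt
MPC3: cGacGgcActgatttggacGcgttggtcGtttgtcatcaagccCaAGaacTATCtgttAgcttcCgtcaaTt

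Every window of 25, 36 or 50 bases within the 3 genes occurred once in the genome (100% of 369, 366 and 417 windows of 25 bases in MPC1, MPC2 and MPC3). A read of those lengths that matches exactly could thus be assigned to one carrier gene. In such reads the level of MPC3 can be told apart from that of MPC2. Reads aligned with mismatches were not examined.

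MPC3 transcript was much lower in scc2-4, and MPC1 and MPC2 were moderately lower. MPC3, the subunit gene of the respiratory carrier, had 336, 211 and 215 RPKM in WT replicates 1, 2 and 3. In scc2-4 it had 38.9, 35.5 and 29.4 RPKM. The groups were far apart, and the lowest WT value was 5.42 times the highest mutant value. Means were 254 ± 71.4 and 34.6 ± 4.80 RPKM (SD, n = 3 each), a log2 difference of -2.80 on log2(RPKM + 1), or 6.99-fold lower. MPC3 was number 18 of the 6559 features tested, counted from the most negative difference. WT replicate 1 held 1.58 times the mean of the other WT libraries, and without it the log2 difference was -2.63.

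MPC1, which encodes the subunit common to both forms of the carrier, had 104, 78.5 and 83.2 RPKM in the WT libraries and 54.2, 56.2 and 62.5 RPKM in the mutant libraries. Each mutant library was below each WT library, and WT replicate 1 was again the highest. The means were 88.6 ± 13.7 and 57.6 ± 4.35 RPKM (SD, n = 3), a log2 difference of -0.59 (1.51-fold lower), and -0.51 without WT replicate 1.

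MPC2, the subunit gene of the fermentative carrier and the most abundant of the 3 transcripts per length, had 766, 731 and 668 RPKM in WT and 541, 500 and 534 RPKM in scc2-4. Here too the groups did not overlap, and replicates lay closer together than for the other carrier genes. Means were 722 ± 49.4 and 525 ± 21.8 RPKM (SD, n = 3), a log2 difference of -0.45 (1.36-fold lower), and -0.44 without WT replicate 1. For all 3 carrier genes the mutant values lay below all WT values, as they did for 23.6% of all features tested; since the genes were chosen with these values known, nothing is read from that count. The median log2 difference of all features was 0.05. These are levels relative to the other transcripts of a culture, so fewer cells with the transcript and less transcript per cell cannot be told apart.

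**Figure D1:**
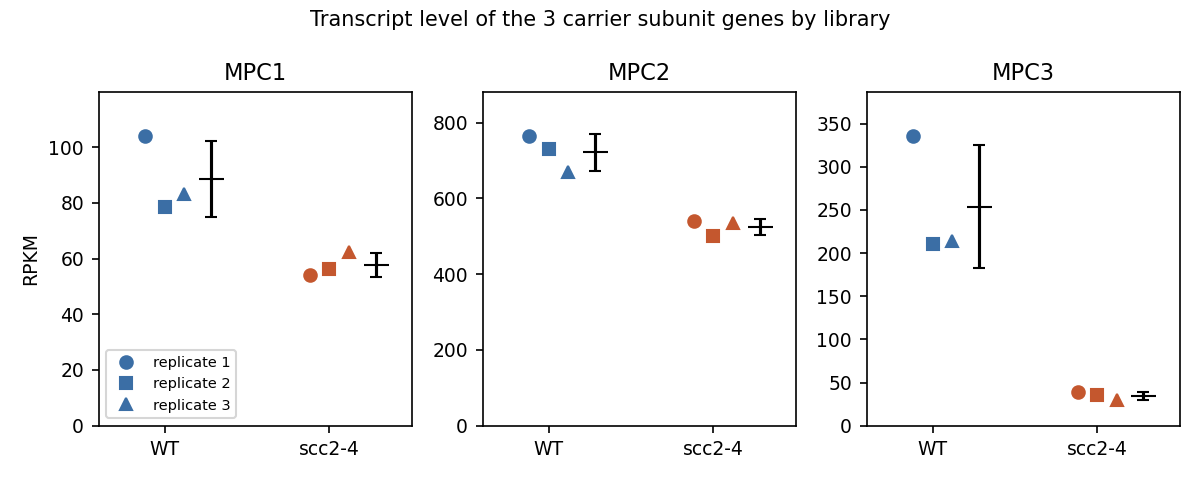
Each panel plots one carrier gene, with RPKM on a linear axis from 0, WT in blue and scc2-4 in orange; each symbol is a library, and the black bars give mean and SD (n = 3). MPC3 in scc2-4 sits between 29.4 and 38.9 RPKM, far below the WT libraries at 211 to 336 RPKM, while MPC1 and MPC2 differ by less than 2-fold.

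Recovered from the value of 1 read in each library, the reads behind these values numbered 193 to 342 for MPC3 in scc2-4 and 1620 to 2179 in WT, 366 to 602 for MPC1 and 3100 to 4970 for MPC2. Counting error alone gave 95% exact Poisson intervals of 25.4 to 33.8 RPKM for the lowest MPC3 value and 322 to 351 RPKM for WT replicate 1. The excess of MPC3 in WT replicate 1 over WT replicates 2 and 3, whose intervals reached 221 and 225 RPKM, was thus larger than counting error.

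The balance between the transcripts of the alternative subunits differed accordingly, and protein was not measured. MPC3 made up 30.5%, 22.4% and 24.3% of the summed MPC2 and MPC3 level in WT replicates 1, 2 and 3, and 6.70%, 6.62% and 5.22% in the mutant libraries. The ratio of MPC3 to MPC2 was 0.349 ± 0.0793 in WT and 0.0659 ± 0.00943 in scc2-4 (SD, n = 3), a log2 difference of -2.36, and -2.18 without WT replicate 1. In WT, MPC3 exceeded MPC1 in every library, at 2.58 to 3.22 times its level. In scc2-4 this order was inverted, with MPC3 at 0.470 to 0.717 times MPC1. MPC2 remained the highest in all 6 libraries, at 7.35 to 9.31 times MPC1 in WT and 8.53 to 9.98 times in scc2-4, ranges that overlap.

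The summed level of MPC2 and MPC3 relative to MPC1 was 11.1 ± 0.806 in WT and 9.74 ± 0.865 in scc2-4 (SD, n = 3). Those values overlapped, since scc2-4 replicate 1 was at 10.7 and WT replicates 1 and 3 at 10.6. Summed over the 3 genes, the level was 966 to 1206 RPKM in WT and 592 to 634 RPKM in scc2-4. Among 6696 protein-coding features, MPC3 ranked above 92.7% by mean RPKM in WT and above 59.7% in scc2-4. MPC1 moved from 81.2% to 72.8% and MPC2 from 97.4% to 96.3%.

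**Figure D2:**
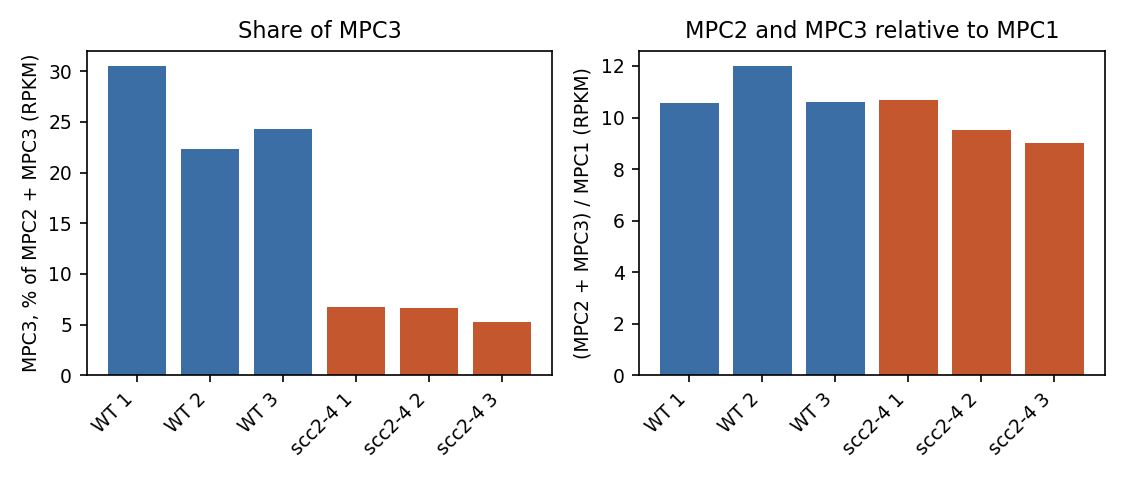
Bars give each library, WT in blue and scc2-4 in orange, on linear axes from 0; the left panel plots MPC3 as a percent of the RPKM of MPC2 plus MPC3, and the right panel plots MPC2 plus MPC3 divided by MPC1. The MPC3 share is 22.4% to 30.5% in WT and 5.22% to 6.70% in scc2-4, while the right-hand ratios overlap.

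Upstream sequence of the 3 genes was searched for 4 short motifs on both strands, in the 250 bases before and 50 bases after each start codon. MPC3 held CCAAT, the core of sites bound by the HAP complex that activates respiratory genes, at 2 places, both on the minus strand (read as ATTGG on the plus strand), 138 and 130 bases before its start codon. MPC1 held it once, 67 bases before the start codon, and MPC2 did not hold it. Of 6006 promoters searched, 43.2% held CCAAT, so these matches describe the sequences only. The stretches with these motifs are shown because the carrier genes differ in them, with the motif in capitals (R64 genome, plus strand, MPC1 chrVII:358561-358581 and MPC3 chrVII:977190-977218).
MPC1: ctcacttgCCAATcagcaaac
MPC3: gcgttgcaATTGGagtATTGGagaaaatt

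AGGGG, the core of the stress response element, was in none of the 3 windows and in 21.6% of all promoters. TATAAA was found in MPC2 and in MPC3, 41 and 83 bases before the start codon, and in 45.3% of all promoters. The motif of Leu3, the activator of leucine synthesis genes, was in none of the 3 and in 0.133% of all promoters. CCAAT and TATAAA matches did not overlap each other.

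The neighbours of MPC3 had smaller differences than MPC3 itself or differences of the opposite sign. Only 0.259% of all features tested had a more negative difference than MPC3, so nearly any feature would show this. The 2 nearest features on each side of each carrier gene were tested with limma, which fits a linear model to all features, with Benjamini-Hochberg adjustment over all 6559 and a threshold of 0.05; 17.5% of all features passed as higher and 15.0% as lower in scc2-4. LSC2, a succinyl-CoA ligase subunit gene 259 bases beyond MPC3, had 125, 70.1 and 59.7 RPKM in WT and 68.1, 63.6 and 55.3 RPKM in scc2-4, with overlapping groups (log2 difference -0.36, adjusted p = 0.254). On the other side of MPC3 the overlapping features YGR242W and YAP1802, a clathrin assembly gene, were at -0.41 and -0.06 and did not pass (adjusted p = 0.0561 and 0.739). SDA1, a ribosome biogenesis gene further beyond LSC2, rose 2.02-fold (adjusted p = 0.0248). Its adjusted p ran from 0.00298 to 0.0882 over the alternatives and missed the threshold without any of the scc2-4 replicates.

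Around MPC1, MIY3, a deubiquitinase gene, fell 1.62-fold (adjusted p = 0.00794), and YGL081W, KXD1 and DBP3 did not pass (log2 differences -0.53, -0.14 and 0.82). Around MPC2, YAP1801, the paralog of YAP1802, fell 1.41-fold (adjusted p = 0.0212), a call that ended without any of the scc2-4 replicates (adjusted p 0.00805 to 0.0797 over the alternatives). PEX18, SOL3 and DNA2 did not pass (-0.45, 0.25 and 0.31). Whether the carrier genes differed from their neighbours was not tested.

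**Figure D3:**
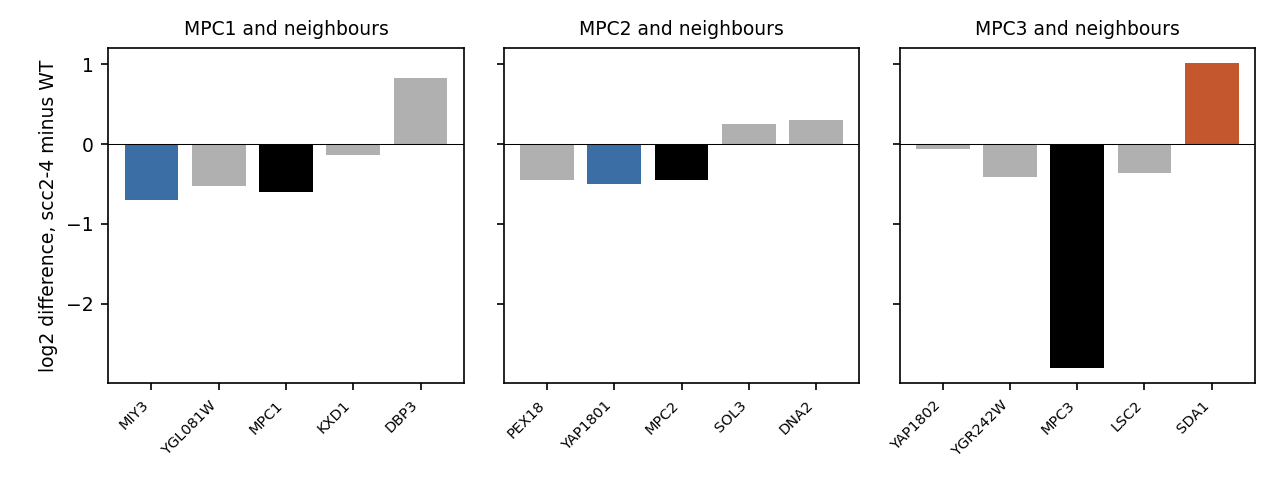
Bars give the log2 difference (scc2-4 minus WT, on log2(RPKM + 1)) of each carrier gene in black and of the 2 nearest features on each side in chromosome order; orange passed as higher, blue as lower, and grey did not pass (limma, 3 libraries per genotype). MPC3 stands at -2.80 between neighbours at -0.41 and -0.36.

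Among 7 genes of enzymes that make or convert pyruvate, 2 were higher, 2 lower and 3 did not pass, where 17.5% of all features were higher and 15.0% lower. The median log2 difference was -0.27 beside 0.05 for all features, and -0.08 without WT replicate 1. PYK2, the minor pyruvate kinase, fell 2.66-fold, with 132, 76.2 and 56.4 RPKM in WT and 34.6, 35.1 and 22.8 RPKM in scc2-4 (adjusted p = 0.0132, limma). CDC19, the main pyruvate kinase, rose 1.38-fold to 6656 ± 577 RPKM (adjusted p = 0.0330), and DLD3, the gene of a 2-hydroxyglutarate transhydrogenase that reduces pyruvate, rose 1.38-fold (adjusted p = 0.0240). CDC19 lost its call without any 1 library, DLD3 without any 1 scc2-4 library and PYK2 without scc2-4 replicate 3. Without any 1 WT library 1 gene was higher, and without any 1 scc2-4 library none was; lower genes numbered 1 without WT replicate 2 or scc2-4 replicates 1 or 2, and 0 without scc2-4 replicate 3. Over the alternatives adjusted p ran from 0.00429 to 0.0525 for PYK2, 0.0150 to 0.124 for CDC19 and 0.0186 to 0.0841 for DLD3. CDC19 overlaps YAL037C-B, and how reads in the overlap were assigned is not stated in these sources.

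The pyruvate dehydrogenase complex, which uses the pyruvate that the carrier delivers, showed no called change in its catalytic subunits. Of 9 genes of the complex and its regulators, none was higher, 2 were lower (22.2%, beside 15.0% of all features) and 7 did not pass. The median log2 difference was -0.12, and -0.07 without WT replicate 1. PDA1, the E1 alpha subunit gene, had 500 ± 49.2 RPKM in WT and 576 ± 51.2 RPKM in scc2-4 (SD, n = 3), and PDB1, the E1 beta subunit gene, 269 ± 22.2 and 306 ± 17.7 RPKM. LAT1 (E2), LPD1 (E3) and PDX1 (the E3-binding protein) had log2 differences of -0.04, -0.22 and -0.19. Adjusted p for these 5 genes was 0.124 to 0.773.

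Among regulators of the complex, PKP2, a kinase gene, fell 1.53-fold from 22.3 ± 3.83 to 13.99 ± 0.369 RPKM (adjusted p = 0.00817), and this call held in all 15 alternatives. PTC6, a phosphatase gene, fell 1.47-fold (adjusted p = 0.0359; 0.0174 to 0.123 over the alternatives). Its call ended without centring and without WT replicate 2 or any of the scc2-4 replicates, which left 1 lower gene in each case. PTC5, the other phosphatase gene, was at -0.12. PKP1, the other kinase gene, was at 0.39 (adjusted p = 0.126) and passed as higher without WT replicate 1 (adjusted p = 0.0205; up to 0.335 over the alternatives). PKP1 lies on chromosome IX, where 71.3% of 244 features tested were higher, with a median log2 difference of 0.81.

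Among 8 genes of mitochondrial enzymes that build amino acids from imported pyruvate, 3 passed as higher, none as lower, and 5 did not pass. Those higher made up 37.5%, beside 17.5% of all features, with a median log2 difference of 0.49, or 0.33 without WT replicate 1. ILV6, the regulatory subunit gene of acetolactate synthase, had 77.7, 95.8 and 80.2 RPKM in WT and 137, 195 and 181 RPKM in scc2-4, without overlap. It rose 2.01-fold (adjusted p = 0.00869), in all 15 alternatives. ILV5, the reductoisomerase gene, rose 2.07-fold from 454 ± 149 to 902 ± 122 RPKM (adjusted p = 0.0338), with 284 RPKM in WT replicate 1 and 516 and 561 RPKM in the other WT libraries. LEU4, an isopropylmalate synthase gene that overlaps YNL103W-A, rose 1.30-fold (adjusted p = 0.0202).

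ILV2, ILV3, BAT1 and LEU9 had log2 differences of 0.51, 0.39, 0.48 and 0.69 and did not pass, and ALT1, the mitochondrial alanine aminotransferase gene, was at -0.46. The number that rose was 1 without WT replicate 2 or any of the scc2-4 replicates, and 4 without WT replicate 1 or 3. Without WT replicate 3 there was also 1 that fell, ALT1. Adjusted p ran from 0.00830 to 0.113 for ILV5 and from 0.00813 to 0.0834 for LEU4 over the alternatives. In WT replicate 1 the list's median was -0.44 relative to the WT mean, against 0.21 and 0.29 in the other WT libraries and 0.38 to 0.73 in the mutant libraries; its part in the result was not tested.

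The route around the carrier goes by way of cytosolic decarboxylation or carboxylation of pyruvate. Of its 10 genes 2 rose, 1 fell and 7 did not pass, near the 17.5% higher and 15.0% lower among all features (median log2 difference 0.25). ALD4, a mitochondrial acetaldehyde dehydrogenase gene, fell 3.51-fold, with 572, 258 and 190 RPKM in WT and 101, 96.8 and 63.0 RPKM in scc2-4 (adjusted p = 0.0134). Its cytosolic counterpart ALD6 rose 1.83-fold from 245 ± 50.1 to 442 ± 53.1 RPKM (adjusted p = 0.0211). PDC6, a minor pyruvate decarboxylase gene, was called higher (adjusted p = 0.0409) at 0.650 ± 0.187 and 1.75 ± 0.542 RPKM, levels near the filter. The ALD4 call ended without scc2-4 replicate 3 (adjusted p = 0.0553; from 0.00242 over the alternatives) and that on ALD6 without scc2-4 replicate 2 or 3 (0.00715 to 0.0807 over the alternatives). PDC6 lost its call without any 1 library (0.0171 to 0.130). Higher genes thus numbered 1 without WT replicate 2 or 3 or scc2-4 replicate 1, and 0 without scc2-4 replicate 2 or 3, and 2 genes were lower without WT replicate 1.

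Of 4 genes of other membrane proteins that pass pyruvate or related acids, 1 was higher, 1 lower and 2 did not pass, where 17.5% of all features were higher and 15.0% lower. Their median log2 difference was -0.27, and -0.06 without WT replicate 1. JEN1, the plasma membrane transporter of lactate and pyruvate, was lower by a log2 difference of -1.20, with 33.5 RPKM in WT replicate 1, 12.03 and 11.8 RPKM in the other WT libraries and 4.89 to 8.71 RPKM in scc2-4 (adjusted p = 0.0428). The JEN1 call ended without WT replicate 2 or any of the scc2-4 replicates (0.0131 to 0.136 over the alternatives), which left no lower gene among the 4. POR2, a porin gene of the outer membrane on chromosome IX, rose 2.16-fold from 58.6 ± 0.200 to 127 ± 9.86 RPKM (adjusted p = 0.00190), while POR1, the main porin gene, was at -0.55 and did not pass (adjusted p = 0.0707). On chromosome IX 71.3% of 244 features tested were higher, with a median log2 difference of 0.81.

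The carrier subunits reach the inner membrane through the TIM22 import pathway. Among its 7 genes, 2 passed as higher (28.6%, beside 17.5% of all features), 1 as lower (14.3%, beside 15.0%), and 4 did not pass (median log2 difference 0.25). TIM12 rose 1.39-fold (adjusted p = 0.00837), a call kept in all 15 alternatives, and TIM54 rose 1.29-fold (adjusted p = 0.0251; 0.0181 to 0.1001 over the alternatives). TIM18 fell 1.23-fold at an adjusted p of 0.0499 and missed the threshold without any 1 library (0.0445 to 0.167 over the alternatives). Without WT replicate 2 or any of the scc2-4 replicates only TIM12 remained among those higher, and 3 genes were higher without WT replicate 1.

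Carriers of the SLC25 family, a family unrelated to the pyruvate carrier that moves other metabolites across the same membrane, were called in both directions. Among 30 carriers 29 were tested, and 6 passed as higher, 5 as lower and 18 as neither, shares of 20.7% and 17.2% beside 17.5% and 15.0% of all features. Their median log2 difference was 0.12, and 0.23 without WT replicate 1. FLX1, a gene linked to mitochondrial FAD, rose 1.57-fold (adjusted p = 0.00419) and lies on chromosome IX. It is 1 of 2 tested carriers there, and the other also passed as higher, where 71.3% of chromosome IX features tested were higher. LEU5, a coenzyme A carrier gene, fell 1.65-fold (adjusted p = 0.00471), and YEA6, an NAD carrier gene, fell 1.43-fold (adjusted p = 0.0104), a call that ended without scc2-4 replicate 3 (adjusted p = 0.0509; from 0.00508 over the alternatives). The counts were 4 higher and 3 lower without WT replicate 2, and 3 and 3, 3 and 2, and 2 and 2 without scc2-4 replicates 1, 2 and 3.

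Regulators of respiratory and glucose-repressed genes were mostly lower. Among 10 such genes none passed as higher, 7 passed as lower and 3 as neither. Those 3 were HAP3, ADR1 and MSN2, at log2 differences of -0.08, -0.41 and 0.10. The lower genes made up 70%, beside 15.0% of all features, with a median log2 difference of -0.60, or -0.55 without WT replicate 1. The list was chosen with earlier results of these data known, so this share is a description only. HAP4, the activating subunit gene of the HAP complex, had 113, 85.0 and 82.7 RPKM in WT and 32.5, 30.1 and 23.6 RPKM in scc2-4. The groups did not overlap, and HAP4 fell 3.15-fold (adjusted p = 0.00165). MSN4, a stress activator gene, fell 1.94-fold (adjusted p = 0.00717). The HAP4 and MSN4 calls held in all 15 alternatives. CAT8, an activator of gluconeogenic genes, fell 2.51-fold (adjusted p = 0.0119), a call that ended without scc2-4 replicate 3 (adjusted p = 0.0511; from 0.00115 over the alternatives). The list also holds MIG1, a glucose repressor, which fell 1.46-fold (adjusted p = 0.0123); it was singled out on its value. Without scc2-4 replicate 3 the number lower was 3, and without any other 1 library it was 5 to 7.

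**Figure D4:**
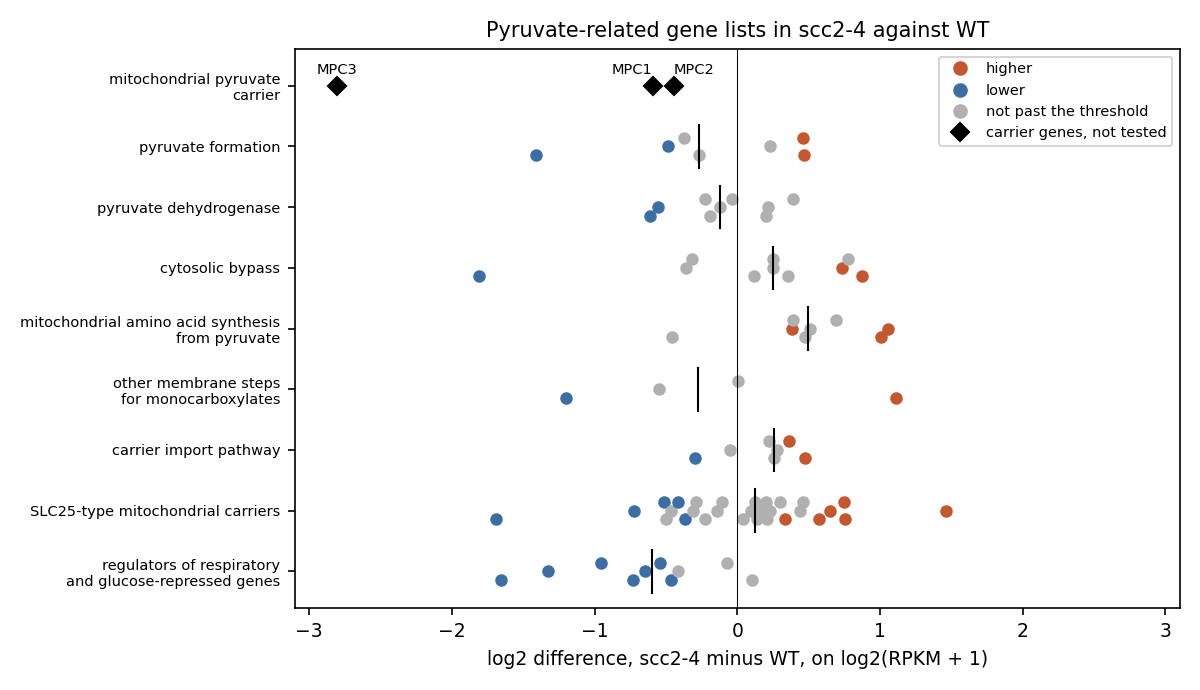
Each point is a gene, placed by its log2 difference (scc2-4 minus WT, on log2(RPKM + 1)) in the row of its list; orange passed as higher and blue as lower (limma, adjusted p under 0.05), grey did not pass, black lines are list medians, and black diamonds are the carrier genes, which were not tested. MPC3 at -2.80 lies further to the left than any listed gene, of which ALD4 at -1.81 comes nearest.

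Features with the most similar pattern over the 6 libraries were ranked for each carrier gene by Pearson's r of centred log2(RPKM + 1), among 5341 features with a mean of at least 10 RPKM. For MPC3 these were SSU1, a sulfite efflux pump gene (r = 0.999), PDR8, a transcription factor gene (0.999), VTC5, of the vacuolar polyphosphate polymerase complex (0.998), CIT2, the peroxisomal citrate synthase gene (0.998), and AGP1, an amino acid permease gene (0.998). The measure compares shape and not size. VTC5 differed by -2.18, AGP1 by -1.93, SSU1 by -1.37, CIT2 by -1.23 and PDR8 by -0.49 on the log2 scale. In AGP1, as in MPC3, WT replicate 1 was well above the others, at 342 RPKM against 223 and 218 RPKM.

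The nearest patterns to MPC1 were HMO1, VPS38, ATP20, PHO2 and CQD2 (r = 0.993 to 0.998), and those to MPC2 were the small nucleolar RNA SNR190, the histone gene HTA1, NKP1, ALG2 and ILM1 (r = 0.991 to 0.996). With 6 libraries from 2 genotypes such values are common: 434, 172 and 148 features reached an r of 0.95 with MPC3, MPC1 and MPC2. The correlations describe these libraries, which share the genotype difference.

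**Figure D5:**
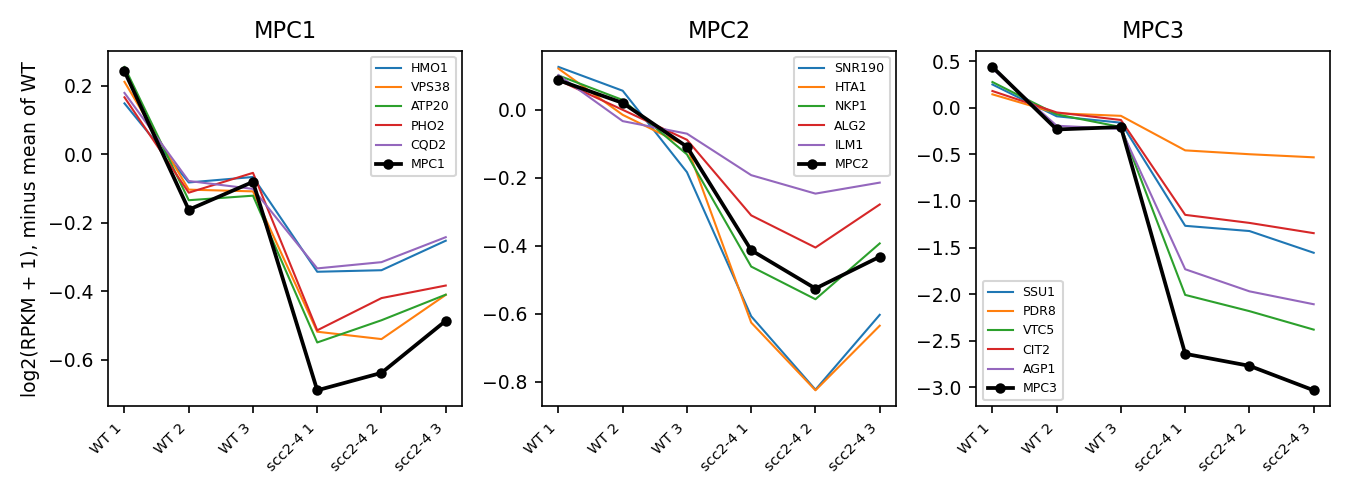
Each panel plots a carrier gene (black) and the 5 features most like it (colours) over the 6 libraries, as log2(RPKM + 1) minus the mean of the WT libraries. In the MPC3 panel all lines are highest in WT replicate 1 and low in all scc2-4 libraries, and MPC3 has the largest difference.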

How the data were processed

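The deposited table holds RPKM values that the authors made, 1 column per library. Bowtie and the sacCer3 build are named, per the submitters' processing notes. Neither the counting tool nor the treatment of reads with several matches is stated in these sources. RPKM times feature length (end minus start) summed to 1000000 in each column, and low values were whole multiples of 1 read (100% within 0.1 read for features under 900 bases with up to 100 reads), which gave depth and reads per gene. Poisson intervals cover counting error only. The comparison of scc2-4 with WT used limma (version 3.58.1, R 4.3.3; empirical Bayes with trend) on log2(RPKM + 1) centred on each library's median, for features with a mean of at least 1 RPKM, with Benjamini-Hochberg adjustment over all 6559; every adjusted p comes from this test. On this scale fold changes of low features are understated. The median shift before centring was 0.037.

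The carrier genes, the 8 gene lists and the tests were chosen with earlier results of these data known. The shares of called genes in the lists are therefore descriptions. Named genes are the carrier genes, the 3 smallest adjusted p among called genes of each list, all genes of the pyruvate dehydrogenase and amino acid lists, the 2 neighbours on each side and the 5 most similar patterns. Of 7130 identifiers, 6048 were in the RefSeq R64 annotation, 99.8% of them with the same start and end, so sequences were read from that genome with Biopython 1.88 and Python 3.11.15. Replicates differed by more than sampling noise (chi-square per degree of freedom 23.1 to 125). Nothing beyond the design text says that they came from separate cultures. The test was also run on simulated libraries with known changes, but these had the same spread for every feature and no outlying library. That run therefore does not show how often calls are wrong in these data.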

Additional observations from a re-analysis of the deposited data

How the results depend on the processing

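The carrier genes were lower in scc2-4 under all 15 alternatives, with log2 differences of -0.67 to -0.51 for MPC1, -0.48 to -0.41 for MPC2, -2.91 to -2.63 for MPC3 and -2.48 to -2.18 for the MPC3 to MPC2 ratio when 1 library was left out; a pseudocount of 10 moved MPC3 to -2.53, since it shrinks low values. Over all features, 1149 were higher and 984 lower, and 373 to 1360 and 386 to 1123 when 1 library was left out. The list counts of higher and lower genes, with 1 library left out, were 0 to 1 and 0 to 2 for pyruvate supply, 0 to 1 and 1 to 2 for pyruvate dehydrogenase, 0 to 2 and 0 to 2 for the cytosolic route, 1 to 4 and 0 to 1 for amino acid synthesis, 1 and 0 to 1 for the other membrane proteins, 1 to 3 and 0 for import, 2 to 6 and 2 to 7 for SLC25 carriers, and 0 and 3 to 7 for regulators. Without centring, the count lower was 1 for pyruvate supply, 1 for pyruvate dehydrogenase, 2 for the cytosolic route and 0 for the other membrane proteins. The count higher was 1 for pyruvate supply with no filter or without overlapping features, and 1 for the cytosolic route with a filter at 10 RPKM, a pseudocount of 0.1 or quantile normalization. JEN1 was not called with no filter or a pseudocount of 10, which left 0 lower genes in its list. TIM18 was not called (0 lower) under pseudocounts of 0.1 and 10, no centring, quantile normalization, no trend, the replicate block and without overlapping features. The cause of these changes was not tested. Correlations of deviations between same-numbered WT and scc2-4 libraries were 0.305, -0.062 and 0.353 for numbers 1, 2 and 3. Between libraries of different number they ran from -0.398 to 0.260. The labels give only the number, and whether same-numbered libraries shared a batch was not tested. With the replicate block 1270 features were higher and 1071 lower, and amino acid synthesis had 5 higher genes. Among the 61 other named genes, 799 of 904 results kept their side of the threshold, 84 lost it and 21 gained it. Of results called in the main comparison or in the alternative, 0 changed direction. Sign changes of genes called in neither were not counted. Of the named genes, 5 had no value with a filter at 10 RPKM and 6 others none without overlapping features. Precision is limited by 3 libraries per genotype.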

Other observations

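Within the SLC25 carriers, the largest differences in each direction belonged to genes named here after their values were seen. PIC2, a phosphate and copper carrier gene, fell 3.23-fold, with 337, 139 and 100.2 RPKM in WT replicates 1, 2 and 3 and 60.3, 50.1 and 43.3 RPKM in scc2-4 (adjusted p = 0.0176, limma). YMC2, a carrier family gene, rose 2.75-fold, with 10.3, 19.9 and 20.7 RPKM in WT and 46.3, 39.1 and 54.1 RPKM in scc2-4 (adjusted p = 0.0129, limma). PIC2 missed the threshold when scc2-4 replicate 2 or 3 was left out, and YMC2 when scc2-4 replicate 3 was. Over the alternatives the limma adjusted p ran from 0.00157 to 0.0687 for PIC2 and from 0.00124 to 0.0553 for YMC2. Both had their most extreme WT value in WT replicate 1, PIC2 high and YMC2 low, and for both genes the WT and scc2-4 values did not overlap.

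Malic enzyme, encoded by MAE1, makes pyruvate inside mitochondria and so does not need the carrier. MAE1, which overlaps YKL030W, had 14.9, 25.8 and 23.7 RPKM in WT and 20.1, 26.6 and 27.5 RPKM in scc2-4, with overlapping groups (adjusted p = 0.488, limma).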
